A study of Homo sapiens with 12 samples.

Results

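Raloxifene was added for 1 h to T47D cells in complete medium, and transcription was compared with that of cells given vehicle. The comparison rests on 4 of the study's 12 libraries, 2 for raloxifene and 2 for vehicle, chosen by their labels and by no measured value, and on the 23375 genes of 59410 that passed a filter on low counts. T47D is a human breast cancer line that carries the estrogen receptor. PRO-seq was used, in which RNA polymerases engaged on the DNA extend their transcripts in a nuclear run-on, so that the reads show ongoing transcription and not the RNA already in the cell.

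Raloxifene was given at 100 nM and vehicle as 0.1% DMSO by volume, after 3 days in complete medium, which contains serum. Fulvestrant and tamoxifen, each at 100 nM for 1 h in the same medium, made up 2 further groups of 2 libraries. A pair of groups was starved of hormones, also with 3 days in medium recorded, and received vehicle (labelled 0.1% DMSO) or 1 nM estradiol for 1 h. The labels number the libraries of each group 3 and 4 in one field and 1 and 2 in another, and 3 and 4 are used here. Whether the 2 libraries of a group are separate cultures is not stated in the labels, so a p-value here weighs a difference against the spread of libraries, part or all of which may be technical.

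Estrogen receptor alpha, encoded by ESR1, is a nuclear receptor. With estradiol bound it sits at estrogen response elements, recruits coactivators and raises transcription of its target genes within minutes. Raloxifene, a benzothiophene, and tamoxifen, a triphenylethylene, are selective estrogen receptor modulators: they occupy the hormone pocket and place the receptor in a shape that binds coactivators poorly, acting as antagonists in breast and as partial agonists in some other tissues. Fulvestrant is a steroid with a long alkyl side chain, an antagonist under which cells also lose the receptor protein. Serum in a complete medium contains estrogens.

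Total counts were 6344474 and 4981796 in the vehicle libraries 3 and 4, and 7856803 and 3682311 in the raloxifene libraries, which are the deepest and the shallowest of the 12. Raloxifene library 4 also stood apart in its makeup. Small RNA genes held 0.380% of its counts against 0.153% to 0.204% in the other 11 libraries, and mitochondrial genes 0.347% against 0.161% to 0.251%. The raloxifene pair had the lowest agreement of the 6 pairs (r = 0.976 across genes, which are not independent replicates, against 0.984 to 0.989), and its chi-square per gene, 2.34, was the highest. Many counts below are therefore also given without this library, and some without another one. Levels are CPM, counts relative to the library's TMM-scaled size. They are not divided by gene length and are compared between libraries, not between genes.

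Most markers of the label's cell type were transcribed. Of 12 luminal epithelial markers 11 passed the filter, and the 12 summed to 6115 and 6215 CPM with vehicle and 5262 and 5842 CPM with raloxifene. PGR alone gave 1597 and 1625 CPM of the vehicle sums. Sums of different lists are not compared, since levels are not divided by gene length. Of the 11 tested, 1 (PGR) passed the test between the groups; 4 did without raloxifene library 4, and 0 without any one of the other 3 libraries. Basal or mesenchymal markers (9 listed, 5 tested) summed to 37.5 to 46.8 CPM over the 4 libraries, and stromal, endothelial or blood markers (9 listed, 4 tested) to 22.6 to 29.2 CPM. ESR1 itself read 1999 and 1993 CPM with vehicle and 1833 and 1851 CPM with raloxifene. The raloxifene values lay lower in both libraries, but the difference did not pass the test (log2 fold change -0.12 ± 0.0396 SE, adjusted p = 0.304). TFF1, a classical estrogen target, was not tested: it had 6 and 7 counts with vehicle and 5 and 3 with raloxifene.

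Raloxifene lowered 112 genes and raised 21 at an adjusted p under 0.05 (edgeR's quasi-likelihood test with Benjamini-Hochberg adjustment over all tested genes), which is 0.479% and 0.0898% of the genes tested. The changes were modest: the lowered genes had a median log2 fold change of -0.52, from -1.74 to -0.19, and the raised genes a median of 0.38, from 0.21 to 1.77. Only 3 lowered and 3 raised genes changed at least 2-fold. The median over all genes was 0.01. CPM did not overlap between the groups for any of these 133 genes, whose calls used the same values. No such share was taken over all tested genes, so this is a description only. Of the lowered genes 93 were protein-coding, 8 were lncRNAs and 11 had no class in RefSeq. The raised genes were longer, with a median of 155740 bases over the 16 with a position against 36793 for the lowered and 29189 for all tested genes with a position. No called gene was a small RNA gene.

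How many genes passed depended on single libraries. Without raloxifene library 4, 140 genes were lower and 62 higher, and 95 of the 112 and 15 of the 21 were among them. Without raloxifene library 3, 56 were lower, 51 of them from the 112, and 148 were higher, of which 102 were small RNA genes and 7 came from the 21. Without vehicle library 3, 28 genes were lower and 1 higher, and without vehicle library 4, 53 were lower and 3 higher. Of the raloxifene pair, library 3, the deeper one, was the lower at 81 of the 112 genes (72.3%, against 49.2% of all tested genes).

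**Figure D1:**
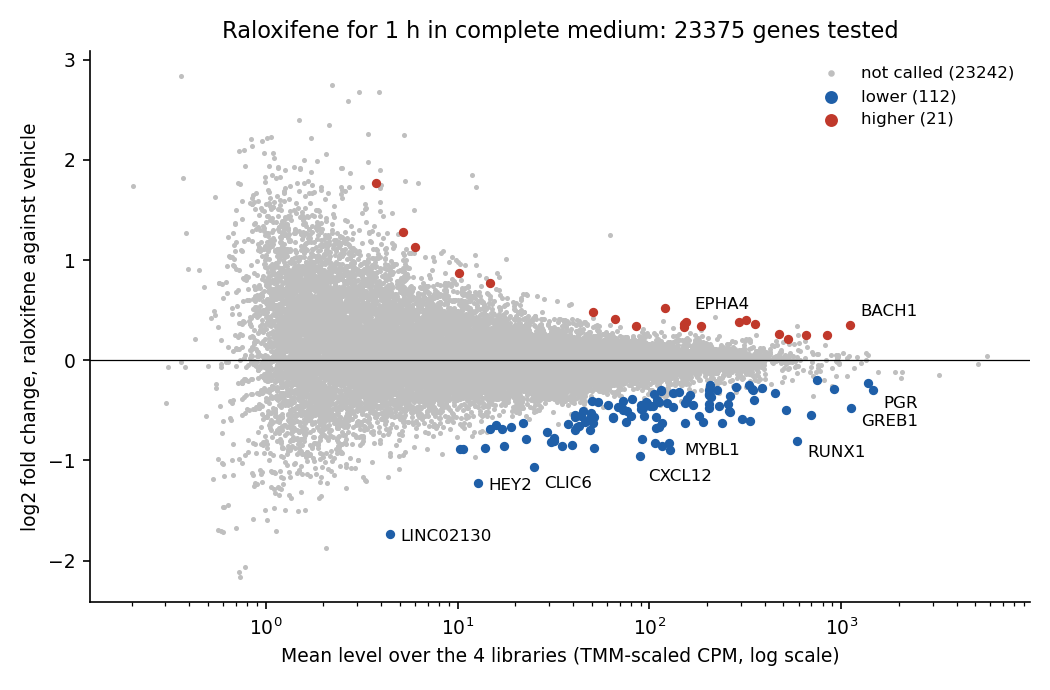
Each point is 1 of the 23375 tested genes, with the mean level over the 4 libraries (TMM-scaled CPM, log scale) on the x axis and the log2 fold change of raloxifene against vehicle on the y axis. The 112 lowered genes (blue) outnumber the 21 raised genes (red), and most of both lie within 1 log2 unit of 0.

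The promoter sequences of 4 strongly lowered genes, and of LINC02130, are shown because the receptor's own DNA element can be looked for in them. HEY2, CXCL12, FAM225B and LINC00160 are lowered genes with low fold changes and an entry in the RefSeq promoter table (GRCh38.p14). LINC02130 had too few counts for the rule on named genes and was chosen after its values were seen, as the lowered gene whose window held a full element. Each line gives the 250 bases before the annotated start, read 5′ to 3′ on the gene's strand. Capitals mark the full element GGTCANNNTGACC in LINC02130 and its single arm GGTCA, or TGACC on the other strand, in the others. The windows are chr6:125749382-125749631 on the plus strand for HEY2 and, on the minus strand, chr10:44385098-44385347 for CXCL12, chr9:113111678-113111927 for FAM225B, chr21:34737183-34737432 for LINC00160 and chr16:14370267-14370516 for LINC02130.
HEY2: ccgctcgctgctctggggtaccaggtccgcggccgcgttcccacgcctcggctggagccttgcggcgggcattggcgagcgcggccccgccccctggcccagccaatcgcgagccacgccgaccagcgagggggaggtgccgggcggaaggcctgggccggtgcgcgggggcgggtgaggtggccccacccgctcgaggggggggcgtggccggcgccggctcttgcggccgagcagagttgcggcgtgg
CXCL12: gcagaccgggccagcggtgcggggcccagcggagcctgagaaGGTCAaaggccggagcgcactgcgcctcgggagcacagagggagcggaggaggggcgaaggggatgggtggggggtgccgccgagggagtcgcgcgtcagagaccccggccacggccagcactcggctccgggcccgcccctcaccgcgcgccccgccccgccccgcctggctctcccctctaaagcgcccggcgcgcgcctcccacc
FAM225B: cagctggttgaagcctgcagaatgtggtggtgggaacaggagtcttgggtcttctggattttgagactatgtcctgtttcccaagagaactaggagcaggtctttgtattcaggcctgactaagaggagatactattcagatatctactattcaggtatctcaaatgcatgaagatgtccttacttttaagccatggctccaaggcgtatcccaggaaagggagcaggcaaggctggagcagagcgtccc
LINC00160: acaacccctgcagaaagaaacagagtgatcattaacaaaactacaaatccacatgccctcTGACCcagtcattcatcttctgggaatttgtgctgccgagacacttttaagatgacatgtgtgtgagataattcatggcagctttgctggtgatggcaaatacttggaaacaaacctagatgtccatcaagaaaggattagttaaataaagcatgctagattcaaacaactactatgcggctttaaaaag
LINC02130: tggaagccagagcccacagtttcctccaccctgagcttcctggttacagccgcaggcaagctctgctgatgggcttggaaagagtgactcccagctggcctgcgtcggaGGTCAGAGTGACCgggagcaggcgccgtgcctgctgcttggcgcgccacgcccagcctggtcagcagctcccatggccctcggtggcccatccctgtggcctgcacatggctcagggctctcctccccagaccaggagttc

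CXCL12 and LINC00160 each had 1 arm, starting 208 and 190 bases before the annotated start, and HEY2 and FAM225B had none. In LINC02130 the full element started 141 bases before the start, and a separate arm 83 bases before it is not in capitals. Over windows of 300 bases (250 before to 50 after the start), the full element was found in 1 of the 78 lowered genes with a promoter entry (1.28%) and in 8 of 13723 tested genes (0.0583%). The single arm, which the full element contains, was found in 35.9% of lowered and 34.7% of all windows on either strand. The other motifs were also at similar shares in the lowered and in all windows: the GC box GGGCGG in 67.9% and 64.9%, the CCAAT box in 33.3% and 36.0%, the TATA box TATAAA in 6.41% and 6.59%, the AP-1 site TGANTCA in 5.13% and 5.05%, and the forkhead site TGTTTAC in 2.56% and 2.45%. A match is a run of letters, not a bound site, and the windows hold no distal enhancers.

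The genes with the lowest fold changes are described by role, starting with transcription factors and regulators of signalling. HEY2, a repressor of the basic helix-loop-helix class that Notch signalling induces, read 17.5 and 17.9 CPM with vehicle and 6.71 and 9.08 CPM with raloxifene. Both raloxifene libraries lay near or under 9 CPM and neither came near the vehicle pair, a log2 fold change of -1.23 ± 0.194 SE (adjusted p = 0.00246). The call was lost without raloxifene library 3 (adjusted p = 0.0845) and without vehicle library 3 (0.0562). DESeq2 called no gene of the Notch pathway list, HEY2 included. No other of the 24 tested Notch pathway genes passed the test in edgeR, and the list's median was -0.01. CLIC6, of the chloride intracellular channel family, read 32.0 and 35.4 CPM with vehicle and 15.3 and 17.3 CPM with raloxifene (-1.07 ± 0.132, adjusted p = 0.00014). It stayed under the threshold whichever of the 4 libraries was left out, with adjusted p between 0.000203 and 0.0096.

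RUNX1, a transcription factor gene altered in some breast cancers, had the smallest adjusted p of all. It read 761 and 735 CPM with vehicle and 410.0 and 451 CPM with raloxifene, 57.5% of the vehicle mean (-0.80 ± 0.0508, adjusted p = 2.62e-08). MYBL1, a MYB-family transcription factor, went from 171 and 162 CPM to 87.2 and 92.7 CPM (-0.90 ± 0.0998, adjusted p = 4.18e-05). PRAG1, a pseudokinase that scaffolds signalling, went from 162 and 164 CPM to 91.1 and 92.2 CPM (-0.83 ± 0.0695, adjusted p = 2.02e-06). In each of these 3 genes the libraries of a pair lay close together and far from the other pair. KCTD6, an adaptor for a cullin ubiquitin ligase, read 59.2 and 75.4 CPM with vehicle and 37.2 and 34.9 CPM with raloxifene, so most of its spread lay in the vehicle pair (-0.87 ± 0.125, adjusted p = 0.000931). MYC, the growth-promoting transcription factor, read 142 and 124 CPM with vehicle and 78.7 and 90.2 CPM with raloxifene (-0.68 ± 0.0951, adjusted p = 0.000762, and 0.057 without vehicle library 3).

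Ligands and receptors of growth and cytokine pathways were a second group. Of 32 listed growth factors, receptors and chemokines 29 were tested, and 6 were lower (4 in DESeq2), beside 0.479% of all tested genes. The others did not pass, and the list's median was -0.06. CXCL12, the chemokine ligand of CXCR4, read 115 and 119 CPM with vehicle and 54.2 and 70.2 CPM with raloxifene (-0.95 ± 0.0974, adjusted p = 2.1e-05). Raloxifene library 3 was the lower of its pair, and without it the log2 fold change was -0.74 (adjusted p = 0.000812). IGFBP4, which binds insulin-like growth factors, went from 146 and 124 CPM to 72.7 and 82.8 CPM (-0.83 ± 0.0897, adjusted p = 3.92e-05). IL6ST, the signalling receptor subunit shared by cytokines of the interleukin-6 family, went from 227 and 236 CPM to 149 and 154 CPM (-0.61 ± 0.068, adjusted p = 4.18e-05). The epidermal growth factor receptor ligands AREG and TGFA read 49.1 and 42.6 CPM and 53.6 and 43.2 CPM with vehicle, and 28.9 and 30.8 CPM and 32.4 and 33.8 CPM with raloxifene. Their adjusted p-values, 0.0119 and 0.015, rose to 0.354 and 0.489 without vehicle library 3, the higher of its pair, and to 0.131 and 0.143 without raloxifene library 3. IGF1R, the receptor of insulin-like growth factor, had the smallest change of the 112, from 806 and 799 CPM to 690.5 and 713 CPM (-0.19 ± 0.0437, adjusted p = 0.0458), and did not pass with any 1 of the 4 libraries left out (0.0632 to 0.39). The count of 6 was 3 without raloxifene library 3 and 3 without vehicle library 3, and 5 without either of the others. JAK1, the kinase that IL6ST signals through, was lowered outside this list (499 and 507 CPM to 398 and 404 CPM, adjusted p = 0.00344), a call that was lost without vehicle library 3 (0.057) and without vehicle library 4 (0.0666).

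**Figure D2:**
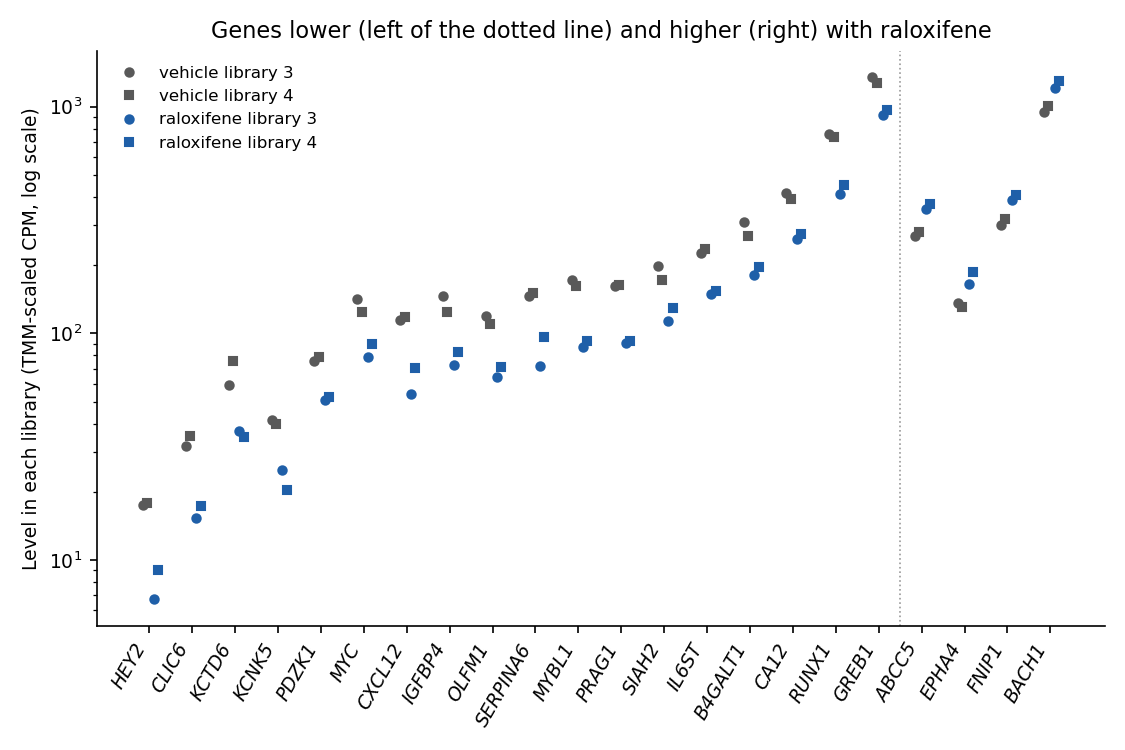
Level of 18 lowered and 4 raised genes in each of the 4 libraries, in TMM-scaled CPM on a log axis, with grey marks for vehicle and blue marks for raloxifene, circles for library 3 and squares for library 4. At every gene shown both raloxifene marks lie on 1 side of both vehicle marks, for instance 410.0 and 451 CPM against 761 and 735 CPM at RUNX1.

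Steroid receptor genes and their partners were lowered to a smaller extent. Of 34 tested nuclear receptors and receptor cofactors 3 were lower, PGR, RARA and NRIP1, beside 0.479% of all tested genes. The list's median was 0.02. NRIP1, a corepressor of the estrogen receptor, read 294 and 295 CPM with vehicle and 217 and 219 CPM with raloxifene, the tightest pairs of the 3 (-0.43 ± 0.064, adjusted p = 0.0012). RARA, a retinoic acid receptor, read 419 and 375 CPM with vehicle and 299 and 306 CPM with raloxifene (-0.39 ± 0.0626, adjusted p = 0.00258, and 0.126 without vehicle library 3). PGR, the progesterone receptor, went from 1597 and 1625 CPM to 1246 and 1386 CPM (-0.29 ± 0.0581, adjusted p = 0.0169). Its adjusted p was 0.0041 without raloxifene library 4 and between 0.16 and 0.187 without any one of the other 3 libraries. Without vehicle library 3 the list held 1 lowered gene, and without raloxifene library 3 or vehicle library 4 it held 2. FKBP4, an HSP90 cochaperone of steroid receptors, was the 1 lowered gene among 16 tested heat shock genes, beside 0.479% of all tested genes. It went from 160 and 155 CPM to 121 and 134 CPM (adjusted p = 0.039 in edgeR), and the median of the heat shock list was 0.07. DESeq2 did not call FKBP4 (adjusted p = 0.108). With 1 library left out its log2 fold change was between -0.38 and -0.23, and the call held only without raloxifene library 4.

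Genes that estrogen is known to induce were drawn up as a list of 53, of which 50 were tested. Several of them were taken from earlier results of these libraries, so the list is not independent evidence of its direction. At an unadjusted p under 0.05 in edgeR, 43 were lower with raloxifene and 0 higher, and DESeq2 called 22 lower and 0 higher. At an adjusted p under 0.05 in edgeR, raloxifene lowered 27 of the 50, beside 0.479% of all tested genes, and raised no member. The list's median was -0.46. The count was 32 without raloxifene library 4, 17 without raloxifene library 3, 13 without vehicle library 3 and 19 without vehicle library 4. GREB1, a chromatin-bound partner of the receptor, read 1354 and 1266 CPM with vehicle and 924 and 965 CPM with raloxifene (-0.47 ± 0.052, adjusted p = 4.18e-05). CA12, a membrane carbonic anhydrase, went from 417 and 391 CPM to 260.5 and 273 CPM (-0.60 ± 0.0517, adjusted p = 2.03e-06), and SIAH2, a ubiquitin ligase, from 198 and 171 CPM to 113 and 129 CPM (-0.63 ± 0.0762, adjusted p = 0.000106). PDZK1, a scaffold protein, went from 75.9 and 78.4 CPM to 51.0 and 52.5 CPM (-0.58 ± 0.109, adjusted p = 0.0119), though its adjusted p lay between 0.0179 and 0.131 with 1 library left out. Members of the list that did not pass include CCND1, the cell cycle gene for cyclin D (138 and 121 CPM with vehicle, 109 and 93.3 CPM with raloxifene, adjusted p = 0.25), and XBP1 (232 and 253 CPM, and 183 and 235 CPM, adjusted p = 0.402, and 0.0225 without raloxifene library 4).

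The raised genes were fewer and rose less. ABCC5, a transporter that exports organic anions, went from 269 and 279 CPM to 352 and 373 CPM (0.40 ± 0.0516, adjusted p = 0.000224) and was the 1 raised gene that passed whichever library was left out. BACH1, a heme-sensing repressor, went from 951 and 1003 CPM to 1206 and 1295 CPM (0.36 ± 0.0569, adjusted p = 0.00272), and FNIP1, a partner of folliculin, from 300.4 and 319 CPM to 389 and 408 CPM (0.36 ± 0.0582, adjusted p = 0.00272). TCF7L1, a repressor in the Wnt pathway, went from 256 and 250.5 CPM to 328 and 334 CPM (0.38 ± 0.0695, adjusted p = 0.00825). Without vehicle library 3 the adjusted p of these 3 was between 0.124 and 0.158, and that of TCF7L1 was 0.141 without vehicle library 4. EPHA4, an ephrin receptor, was the 1 raised gene among 22 tested genes of an estrogen-repressed list, beside 0.0898% of all tested genes (136 and 131 CPM to 165 and 187 CPM, 0.38 ± 0.0701, adjusted p = 0.00863). None of that list was lower in edgeR or DESeq2 (3 were at an unadjusted p under 0.05). EPHA4 passed without raloxifene library 3 (adjusted p = 0.00371) and did not without raloxifene library 4 (0.0632), vehicle library 3 (0.114) or vehicle library 4 (0.172). The largest fold changes upward were at genes of low counts, such as KCNMB2, an auxiliary potassium channel subunit, at 2.54 and 3.67 CPM with vehicle and 7.72 and 6.88 CPM with raloxifene (1.28 ± 0.275, adjusted p = 0.0341). KCNMB2 did not pass without raloxifene library 3 (0.242), vehicle library 3 (0.513) or vehicle library 4 (0.0984).

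Calls in the remaining lists were 2 immediate-early genes and 1 target of the aryl hydrocarbon receptor. Of 33 tested immediate-early genes 2 were lower, FOSL2 and KLF6, beside 0.479% of all tested genes, with a list median of -0.10. DESeq2 called 1 gene of this list lower. KLF6, a zinc-finger transcription factor, went from 90.2 and 99.4 CPM to 59.0 and 72.9 CPM (-0.55 ± 0.108, adjusted p = 0.0156). It passed without raloxifene library 4 (0.00311) and did not without any one of the other 3 libraries (0.0885 to 0.301). FOSL2, an AP-1 subunit (adjusted p = 0.0383), did not pass without raloxifene library 3 (0.322) or vehicle library 3 (0.574). The list held 3 lowered genes without raloxifene library 4, 1 without vehicle library 4 and 0 without either of the others. TIPARP was the 1 lower gene among 9 tested targets of the aryl hydrocarbon receptor (87.6 and 93.7 CPM to 55.3 and 65.2 CPM, -0.61 ± 0.119, adjusted p = 0.0148). In so short a list a single call already exceeds the 0.479% of all tested genes. The list's median was -0.02. The call of TIPARP held without raloxifene library 4 and was lost without any one of the others. Genes of ribosome biogenesis (35 tested, median 0.01), the G1/S (31) and G2/M (24) cell cycle phases (median -0.05 each) and cholesterol synthesis (24) gave 0 calls in edgeR and DESeq2. At an unadjusted p under 0.05 they held 1, 4, 4 and 3 lower and 2, 0, 0 and 1 higher genes. The unfolded protein response (24 tested), interferon-stimulated genes (21), p53 targets (21), the BCL2 family (17) and housekeeping genes (15) likewise gave 0 calls in both tools, with 1, 1, 3, 0 and 1 lower and 1, 0, 0, 1 and 0 higher genes at an unadjusted p under 0.05. With quality weights for the libraries, limma called 1 lower gene each among the cholesterol and housekeeping genes. Without raloxifene library 4, 1 gene each was lower in the cholesterol, unfolded protein, p53 and housekeeping lists.

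The libraries of the starved cells are not among the 4 compared above. All 12 libraries share 1 fit, however, so leaving out a raloxifene or vehicle library also moved the number of genes called with estradiol. Estradiol raised 1177 genes (5.04% of those tested) and lowered 874 (3.74%) in the starved cells. Of the 112 genes that raloxifene lowered, 104 (92.9%) rose with estradiol and 8 were not called, with a median estradiol log2 fold change of 1.10 against -0.01 over all genes. Of the 21 raised genes 13 (61.9%) fell with estradiol and 8 were not called. Seen from the other side, the 104 genes are 8.84% of those that estradiol raised, and the 13 genes 1.49% of those it lowered. The 104 became 116 of 140 without raloxifene library 4, 53 of 56 without raloxifene library 3, 28 of 28 without vehicle library 3 and 52 of 53 without vehicle library 4. The 13 raised genes that fell with estradiol became 14 of 62, 9 of 148, 1 of 1 and 3 of 3 in the same order of left-out libraries.

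The share of estradiol-raised genes that raloxifene lowered grew with the size of the estradiol response. The 1177 genes were split into 4 bins of like size by their rise in the starved cells, whose median log2 rises were 0.29, 0.45, 0.73 and 1.46. Raloxifene lowered 4 of 295 (1.36%), 9 of 294 (3.06%), 22 of 294 (7.48%) and 69 of 294 (23.5%). Its median log2 fold change in the 4 bins was -0.04, -0.06, -0.18 and -0.33, and in the top bin it was -0.34 without raloxifene library 4 and -0.36 without library 3. The 69 calls became 70 and 42 in these fits, and 25 and 40 without vehicle library 3 and 4. The medians for fulvestrant were -0.05, -0.10, -0.25 and -0.56, and for tamoxifen -0.01, -0.02, -0.10 and -0.19. These 3 sets of medians are each set against the same vehicle libraries and are given side by side only.

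**Figure D3:**
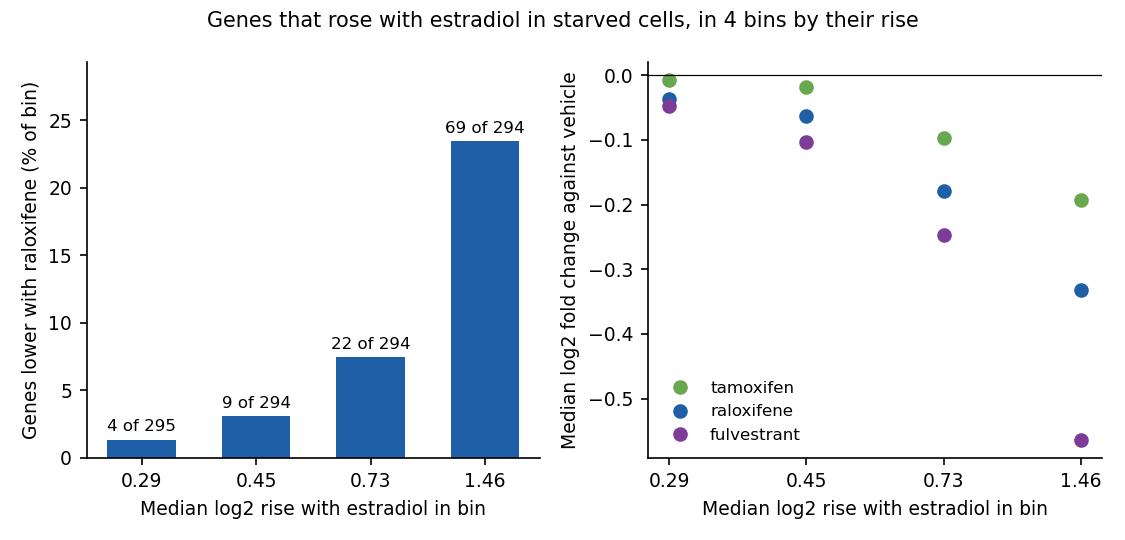
Genes raised by estradiol in starved cells, in 4 bins by their rise (x axis, median log2 rise of each bin, evenly spaced). The left panel gives the percent of each bin that raloxifene lowered in complete medium, from 4 of 295 to 69 of 294, and the right panel the median log2 fold change of each drug against vehicle, which in the top bin was -0.19 for tamoxifen, -0.33 for raloxifene and -0.56 for fulvestrant.

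Among the 8 lowered genes that estradiol did not change past the threshold were ARRDC3, KLF6, H2AC6, CCDC85A, ARHGAP15 and FAM225B, named after their values were seen. ARRDC3, an arrestin-domain gene that acts in receptor trafficking, read 141 and 131 CPM with vehicle and 75.3 and 103 CPM with raloxifene (-0.66 ± 0.144, adjusted p = 0.036), and its estradiol log2 fold change was -0.20 ± 0.125 (adjusted p = 0.446). H2AC6, a histone gene, read 107 and 113 CPM and 68.5 and 85.3 CPM (-0.55 ± 0.12, adjusted p = 0.0357), with an estradiol change of 0.01 ± 0.11 (adjusted p = 0.991). Raloxifene library 3 was the lower of its pair in both genes, and without it their adjusted p-values were 0.406 and 0.405. Without vehicle library 3 they were 0.438 and 0.221, and without vehicle library 4 0.151 and 0.29. FAM225B, a long noncoding RNA, read 13.2 and 14.3 CPM and 6.96 and 8.25 CPM (-0.88 ± 0.198, adjusted p = 0.0458, and 0.0395 to 0.393 with 1 library left out).

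**Figure D4:**
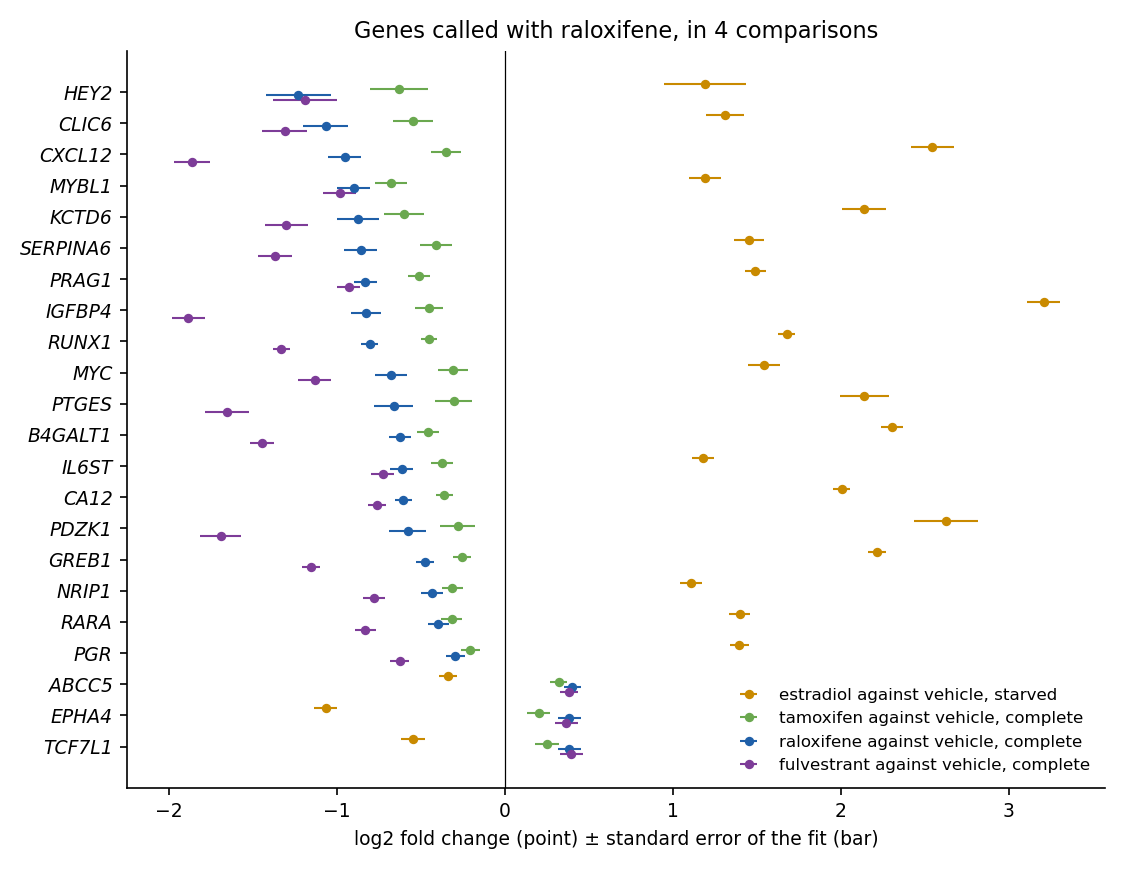
Log2 fold change (points) with the standard error of the fit (bars) for 22 called genes in 4 comparisons: estradiol against vehicle in starved cells, and tamoxifen, raloxifene and fulvestrant against vehicle in complete medium. At the 19 lowered genes the estradiol points lie to the right of 0 and the raloxifene points to the left, and at ABCC5, EPHA4 and TCF7L1 the sides are exchanged.

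The drugs were also compared with each other directly, in 2 pairs at the same dose and time, with p-values adjusted over all genes in each pair. Against fulvestrant, 24 genes were higher with raloxifene (0.103% of those tested) and 0 were lower in edgeR, in DESeq2 or with quality weights in limma, where 402 were lower and 744 higher at an unadjusted p under 0.05 in edgeR. The 24 differences had a median of 0.54, from 0.33 to 1.48. Leaving out a fulvestrant library left 14 genes, all among the 24, and leaving out raloxifene library 4 left 19, of which 16 were among them. Without raloxifene library 3 the count was 168, of which 94 were small RNA genes and 21 were among the 24. All 24 rose with estradiol in the starved cells, beside 5.04% of all genes.

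Among the 24, 19 had also been lowered by raloxifene, so their transcription stood between vehicle and fulvestrant. IGFBP4 read 37.8 and 35.8 CPM with fulvestrant, under the 72.7 and 82.8 CPM with raloxifene, a log2 difference of 1.06 (95% interval 0.83 to 1.28, adjusted p = 2.04e-05). CXCL12 read 30.0 and 34.3 CPM with fulvestrant, under the 54.2 and 70.2 CPM of raloxifene (0.91, interval 0.67 to 1.15, adjusted p = 0.000479). PDZK1 read 20.4 and 27.7 CPM with fulvestrant (1.11, interval 0.84 to 1.38, adjusted p = 0.000138) and PTGES, a prostaglandin E synthase that raloxifene lowered from 52.3 and 52.1 CPM to 32.3 and 34.4 CPM, read 14.5 and 18.9 CPM (0.99, interval 0.70 to 1.28, adjusted p = 0.00157). The call of PTGES against vehicle (adjusted p = 0.00645) was lost without raloxifene library 3 (0.0797), vehicle library 3 (0.124) or vehicle library 4 (0.0749), and those of PDZK1 and PGR were lost without the same libraries. GREB1 read 586 and 591 CPM (0.68, interval 0.57 to 0.79, adjusted p = 1.11e-06) and PGR 998 and 1090.1 CPM (0.33, interval 0.21 to 0.45, adjusted p = 0.0211).

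The other 5 genes of the 24 did not pass against vehicle: AMZ1, SERPINA10, COL12A1, SPINK4 and GATA4. AMZ1, a metalloprotease gene, read 406 and 393 CPM with vehicle, 386 and 406 CPM with raloxifene and 272 and 284 CPM with fulvestrant. Its raloxifene libraries overlapped the vehicle libraries (-0.02, interval -0.14 to 0.10, adjusted p = 0.957) and lay above those of fulvestrant (0.51, interval 0.38 to 0.63, adjusted p = 0.000138). SERPINA10, which encodes a protease inhibitor of the clotting system, read 38.5 and 28.1 CPM, 33.0 and 28.1 CPM, and 17.3 and 14.9 CPM in the same order. SPINK4, a serine protease inhibitor, had the largest difference of the 24: 50.3 and 56.4 CPM with vehicle, 34.3 and 44.0 CPM with raloxifene, and 13.9 and 13.3 CPM with fulvestrant (1.48, interval 1.18 to 1.77, adjusted p = 1.3e-05). Against vehicle, SPINK4 and GATA4 did not pass in edgeR (-0.49 and -0.54, adjusted p = 0.0554 and 0.0507), with no overlap between the groups. DESeq2 did not call them either (adjusted p = 0.329 and 0.366). With 1 library left out, the log2 fold change was between -0.63 and -0.27 for SPINK4 and between -0.67 and -0.35 for GATA4. Both fell most without raloxifene library 4 and least without raloxifene library 3.

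At other lowered genes no difference from fulvestrant was found, and the interval says how large one could be. HEY2 read 8.08 and 7.37 CPM with fulvestrant, within the range of the raloxifene pair (-0.04, interval -0.50 to 0.42). MYBL1 read 77.4 and 91.9 CPM with fulvestrant (0.08, interval -0.14 to 0.31), PRAG1 80.8 and 90.4 CPM (0.10, interval -0.06 to 0.25) and IL6ST 134 and 145 CPM (0.11, interval -0.03 to 0.26). AREG read 29.2 and 34.7 CPM with fulvestrant (-0.11, interval -0.37 to 0.16). ABCC5 and TCF7L1, raised by raloxifene, read 358 and 356 CPM and 332 and 335 CPM with fulvestrant (0.02, interval -0.09 to 0.12, and -0.01, interval -0.15 to 0.13). The adjusted p of each of these 7 differences was at least 0.981, which does not show that the drugs act alike.

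Against tamoxifen 1 gene differed, 0.00428% of those tested. RUNX1 read 548 and 548 CPM with tamoxifen, above the 410.0 and 451 CPM with raloxifene and under the 761 and 735 CPM with vehicle (-0.35, interval -0.46 to -0.25, adjusted p = 0.0241). It did not pass when a vehicle or a tamoxifen library was left out (adjusted p between 0.0568 and 0.20), and passed without raloxifene library 3 (0.0271) or 4 (0.00333). No gene was higher with raloxifene in edgeR, DESeq2 or limma, and 556 were lower and 505 higher at an unadjusted p under 0.05 in edgeR. Without raloxifene library 4, 4 genes were lower, and without library 3, 2 were lower and 162 higher, 106 of these 164 being small RNA genes.

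Values at single genes show how much of a difference the 2 drugs may still have. CXCL12 read 86.3 and 97.7 CPM with tamoxifen and 54.2 and 70.2 CPM with raloxifene, pairs that did not overlap (-0.61, interval -0.81 to -0.40, adjusted p = 0.063). CLIC6 read 20.9 and 25.5 CPM with tamoxifen (-0.52, interval -0.81 to -0.24) and HEY2 10.3 and 12.8 CPM (-0.60, interval -1.02 to -0.18), each with an adjusted p of 1. GREB1 read 1110.1 and 1088 CPM (-0.22, interval -0.33 to -0.11, adjusted p = 0.739) and PGR 1334 and 1464 CPM (-0.09, interval -0.21 to 0.03, adjusted p = 1). At 110 of the 112 lowered genes the value with raloxifene was under that with tamoxifen. Those genes were chosen for being low in the same raloxifene libraries, so this count is a description.

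**Figure D5:**
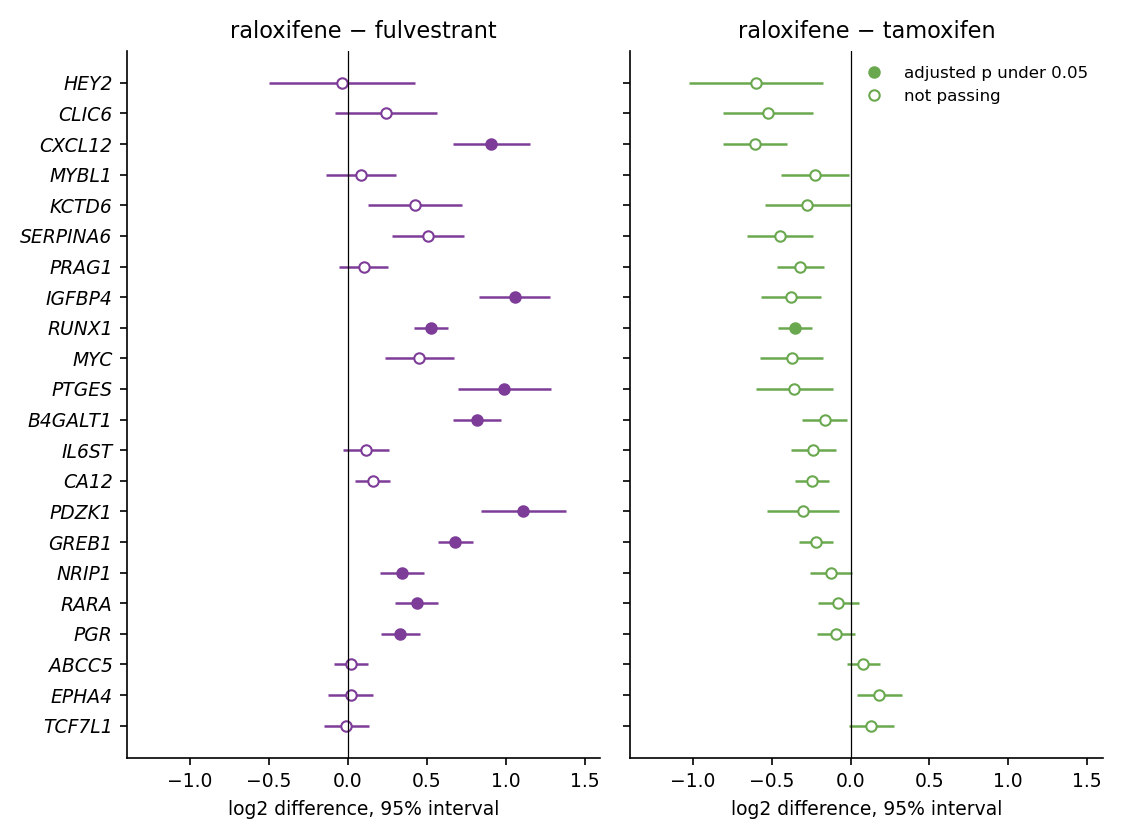
Log2 difference between raloxifene and fulvestrant (left) and between raloxifene and tamoxifen (right) for 22 called genes, with 95% intervals; filled points have an adjusted p under 0.05. Against fulvestrant IGFBP4, CXCL12, PDZK1 and PTGES stand near 1 while HEY2, MYBL1, PRAG1 and the 3 raised genes span 0, and against tamoxifen 1 point, RUNX1, is filled.

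The lowered genes often had a lowered neighbour. Of 101 with a position in RefSeq (GRCh38.p14), 27 (26.7%) had another lowered gene starting within 500 kb, as had 943 of all 18491 tested genes with a position (5.10%). A figure for all tested genes is given only for this main fit, not with a library left out. The share was 35.2% (44 of 125) without raloxifene library 4 and between 27.8% and 31.2% without any one of the other 3 libraries. On chromosome 21, CLIC6 (34668994 to 34718223), LINC00160 (34723807 to 34737182) and RUNX1 (34787801 to 35049302) lie in a row, and LINC00160 went from 17.2 and 18.7 CPM to 9.37 and 10.5 CPM (-0.88 ± 0.178, adjusted p = 0.0221, and 0.146 to 0.24 without raloxifene library 3 or either vehicle library). On chromosome 17, RARA (40309180 to 40357643), IGFBP4 (40443450 to 40457725) and TNS4 (40475834 to 40501623), a focal adhesion gene, were all lower. IGFBP4 stood at 57.4% of the vehicle mean, TNS4 at 67.2% and RARA at 76.3%, and without vehicle library 3 neither TNS4 nor RARA passed (adjusted p = 0.126 each). On chromosome 10, TRIM8, ARL3 and SFXN2 lie within 70.2 kb, start to start, though TRIM8 (adjusted p = 0.0142) passed in the left-out fits only without raloxifene library 4. On chromosome 14 SERPINA6, the gene of corticosteroid-binding globulin, and SERPINA1, that of alpha-1 antitrypsin, lie 72.5 kb apart. SERPINA10 (94280460 to 94293268), on the other side of SERPINA6, did not pass in edgeR (-0.11 ± 0.151, adjusted p = 0.868). SERPINA6 went from 146 and 151 CPM to 71.9 and 96.8 CPM (-0.86 ± 0.0989, adjusted p = 6.93e-05) and SERPINA1 from 29.4 and 28.3 CPM to 17.0 and 16.5 CPM (-0.78 ± 0.128, adjusted p = 0.00303, and 0.0885 without vehicle library 3).

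Neighbours did not always move the same way. On chromosome 3, MAP6D1 was lower (79.8 and 79.6 CPM to 59.1 and 55.0 CPM, -0.47 ± 0.0922, adjusted p = 0.0158, and over 0.05 without raloxifene library 4 or either vehicle library) while ABCC5, 104.0 kb away start to start, was higher. Also on chromosome 3, KCTD6 and PXK, 159.2 kb apart start to start, were both lower, at 53.6% and 70.7% of the vehicle mean. SIAH2 overlaps SIAH2-AS1, and SGK3 overlaps the readthrough gene C8orf44-SGK3, and both pairs are in the count of lowered neighbours above. Since nothing used here states whether the counting took strand into account, the reads of such pairs cannot be told apart.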

How the data were processed

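PRO-seq counts of 12 T47D libraries were used. The authors deposited whole-number counts per Ensembl gene, not normalized. The submitters' processing notes name build hg38, Bowtie2 2.4.4, SAMtools 1.9 and cutadapt 1.8.1. What counted the reads, over which annotation and part of a gene, and with which strand setting was not given in the sources used here. Symbols were matched for 60463 of 60605 IDs (the others held 0.281% of counts), and 1195 IDs that shared a symbol with a higher one were dropped (0.0741%). RefSeq positions (GRCh38.p14) were matched by symbol for 40118 of 59410 genes.

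Counts were filtered with filterByExpr, scaled by TMM and fitted with edgeR 4.0.16 (R 4.3.3) in 6 groups over all 12 libraries, which share 1 estimate of the spread. Its quasi-likelihood test was used with Benjamini-Hochberg adjustment over 23375 genes and a threshold of 0.05. Standard errors and 95% intervals of log2 fold changes come from this fit. Reads without molecular identifiers are not independent molecules. Alternatives were DESeq2 1.42.0, limma 3.58.1 with library quality weights, other scalings and filters, fewer libraries in the fit, a replicate block, no small RNA genes, and each library left out in turn; leaving out fulvestrant and tamoxifen libraries was added after seeing the data. The scripts were tested on simulated data.

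Members and lists were chosen with earlier results of these data known. The rule for named genes took, among called genes whose 4 libraries average 50 counts or more and whose groups do not overlap, the 15 lowest and 10 highest, up to 4 members per list by adjusted p, a fixed set (NRIP1, XBP1, RARA, CCND1, MYC, PDZK1, TFF1, PGR, GREB1, ESR1) and up to 5 genes per direction against each other drug. Other genes named were chosen after their values were seen.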

Additional observations from a re-analysis of the deposited data

How the results depend on the processing

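With 2 libraries a group, the counts of called genes depend on single libraries and on the spread assumed, and a left-out library leaves 1 sample that is taken to vary like the other groups. Raloxifene against vehicle gave 112 lower genes, 222 without a filter, 306 with the replicate block and 28 to 140 with 1 library left out, and between 77 and 133 in the other alternatives run. The 21 higher genes were 13 with DESeq2, 32 without scaling, 33 with a mean of at least 20 counts, 33 with quality weights, 132 without a filter, 184 with the replicate block and 1 to 148 with 1 library left out. The 24 genes against fulvestrant were 90 without a filter, 77 with the replicate block and 14 to 168 with 1 library left out. The 1 gene against tamoxifen was 0 with the 8 complete-medium libraries, 0 with the libraries compared only, 4 with quality weights, 65 without a filter, 35 with the replicate block and 0 to 164 with 1 library left out. Of genes lower with raloxifene, 104 rose with estradiol, 183 without a filter, 230 with the replicate block and 28 to 116 with 1 library left out; this count was not run for the 8 complete-medium libraries alone. The cause of the rise without a filter was not tested. The labels do not say that a number marks a batch; over 14629 genes, the deviations of the raloxifene pair from its mean correlated with those of the same-numbered libraries at 0.229 for vehicle, 0.330 for fulvestrant, 0.423 for tamoxifen, 0.104 for starved vehicle and 0.189 for estradiol. Of the 41 named genes called for raloxifene against vehicle, 15 kept their call in each alternative run; of 574 values of these genes 101 lost it, and 38 values of other named genes gained one. With the replicate block SPINK4 and GATA4 were called lower than vehicle (adjusted p = 0.00163 and 0.0013).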
